A study of Homo sapiens with 16 samples.

Results

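The response of HT1080 cells to 1 h with the copper complex A0 was read from 4 of the 16 arrays of a time course, 2 of cells given A0 for 1 h and 2 of control cells. HT1080 is an established human fibrosarcoma line, grown here in DMEM with glutamine, antibiotics and serum. A0 is a thioxotriazole copper(II) complex and was added at 25 µM. The other 12 arrays hold 2 each of A0 at 3, 6 and 12 h and of cisplatin, a platinum drug that binds DNA, at 3, 6 and 12 h and the same dose of 25 µM. The labels describe the controls only as control cells, with no time and no mention of a vehicle, so the effect of A0 and that of handling or harvest time cannot be told apart. Nothing states that the arrays of a group hold RNA of separate cultures. The p-values therefore reflect only how far arrays of the same group spread, pooled over all 16 arrays, and this spread may be technical variation.

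A probe was taken if its detection score, which runs from 0 to 1 and is high for a signal above background, was at least 0.99 on both arrays of A0 1 h or on both control arrays. That held for 8575 of the 24350 probes, and 9293 were tested because they met the same condition in at least 1 of the 8 groups of the series. The 402 probes just inside the threshold (scores from 0.99 to 0.995) had a median level of 5.52 on the log2 scale, and the 325 just outside (from 0.985) had 5.38. The probes carry GI sequence numbers, and 0 of these matched the gene table used here, so no gene is named, the labelled cell line was not checked against its markers, and single probes are given by their numbers.

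Copper is taken up by a dedicated transporter and handed to chaperones, and an excess of it binds protein thiols and takes part in redox cycling. Cells are known to answer metal, oxidant and protein-folding stress with transcription of metallothioneins, heat shock proteins, antioxidant enzymes and endoplasmic reticulum chaperones, and the first transcripts of such programmes, like those of the immediate early genes, can accumulate within an hour. Whether those genes are among the probes described here was not tested, because the probe numbers could not be matched to genes.

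On the quantile normalised scale, most transcripts stood close to their control level after 1 h with A0. The median log2 difference of A0 1 h from control was -0.03 over the 8575 probes. The quartiles were -0.29 and 0.25, and the 5th and 95th percentiles -0.78 and 0.79. Quantile normalisation gives all arrays the same distribution of signals and so holds this median close to no change. The median therefore cannot show whether most transcripts shifted together, and the quartiles and percentiles describe only the spread between probes. On limma's adjusted p, 162 probes were higher at A0 1 h and 92 lower, or 254 in all. This is 2.96% of the 8575, against 2.73% of all 9293 tested (1.74% higher and 0.99% lower), and 0 of the tested probes outside the 8575 were called. Limma's unadjusted p was under 0.05 at 1679 of the 8575 probes and at 1713 of all 9293 tested. Where neither array of a group detected a probe, that group's level was set on each array at the dimmest detected signal, or at the probe's own where that read higher, so that its fold is a lower bound. With 9 of the higher and 10 of the lower probes at such a bound, 22 were 4-fold or more above control and 4 were 4-fold or more below it, and the median change was 2.55-fold among the higher and 2.18-fold among the lower. By size alone, 220 of the 8575 probes (2.57%) were 2-fold or more higher at A0 1 h and 177 (2.06%) were 2-fold or more lower. All 9293 tested probes gave the same 220 and 177, or 2.37% and 1.9%.

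The called probes lay at all levels. When the 8575 probes were divided into quartiles by their mean level on the 4 arrays, the share called was 1.82% in the dimmest quartile, 2.71% and 3.64% in the next ones and 3.68% in the brightest. Higher calls numbered 20, 35, 47 and 60 over these quartiles, and lower calls 19, 23, 31 and 19. Probes for genes with a single transcript (suffix S) gave 130 of the higher and 73 of the lower calls, or 2.87% of 7081. Among probes that read all variants of a gene (suffix A) the share was 3.92% of 1021, and among probes for a single variant (suffix I) it was 2.33% of 473.

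Most called transcripts were detected in both groups. All 4 arrays detected 7455 of the probes, or 86.9%, and 144 of the higher and 69 of the lower calls were among them. A further 109 probes entered only through A0 1 h, with detection on both of its arrays and on 0 control arrays, and 9 of them were called higher. Another 173 entered only through control, with detection on 0 A0 1 h arrays, and 10 of them were called lower. The choice of probes fixed the direction of these calls, so the counts are a description and are not set against the 1.74% and 0.99% of all tested probes. The 9 had levels from 5.92 to 6.99 at A0 1 h on the log2 scale and were at least 1.43-fold to at least 2.99-fold higher than control. The 10 were at least 1.24-fold to at least 1.95-fold lower.

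The A0 1 h arrays differed from each other in their bright signals and in detection. Replicate 1 of A0 1 h detected 7970 probes and replicate 2 detected 9039, against 8581 and 9037 on controls 1 and 2. The signal at the 90th percentile was 386 on A0 1 h replicate 1 and 507 on replicate 2, against 540 and 498 on the controls. The median signal went the other way, at 118.1 on A0 1 h replicate 1 and 101.4 on replicate 2, against 118.8 and 99.5 on the controls. Differences between replicates were not particular to A0 1 h. Replicate 1 detected fewer probes in every group, from 8719 against 8835 at cisplatin 6 h to 7626 against 9640 at A0 3 h. Its 90th percentile signal was the lower in every treated group (448 against 473 and 313 against 632 in these groups), though not in control. Of the 636 probes detected on both controls and on 1 A0 1 h array, 13 were called lower. The part of A0 1 h replicate 1 in these calls was not tested.

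The 2 pairs of arrays share no array, so each gives its own measure of the difference. Across the 8575 probes their differences correlated at 0.73 (Pearson, across probes, which are not independent replicates, with all 4 arrays normalised together), and at 0.60 with the numbers crossed. In both same-numbered pairs 161 probes were 2-fold or more higher at A0 1 h and 110 were 2-fold or more lower in measured signal, or 1.88% and 1.28% of the 8575 (1.73% and 1.18% of all tested probes). With the numbers crossed there were 159 and 89. Opposite 2-fold differences occurred at 0 probes with the same numbers and at 5 with crossed numbers. Of the 161 and 110 probes, 116 and 52 were called, so 45 of the higher and 58 of the lower ones differed 2-fold or more in both pairs without passing the test. A simpler criterion, both A0 1 h arrays above both controls, held for 28.2% of the 8575 probes, and both below for 31.2%, against 27.3% and 29.9% of all tested. All 254 called probes met it in their direction.

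Among the 213 called probes that all 4 arrays detected, GI_4504436-S rose the most. Its log2 signal was 12.15 and 11.86 on the A0 1 h arrays, against 7.33 and 7.52 on the control arrays. Scanner signals before normalisation were 3836 and 4261 on the A0 1 h arrays and 288 and 287 on the controls, so the groups stood far apart before any scaling. The log2 fold change was 4.58, or 23.9-fold (SE 0.427, limma adjusted p = 0.000447). In rank the transcript stood at the 98.0th percentile of the 8575 probes at A0 1 h and at the 50.2nd in control.

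GI_32698821-S rose second most. Its log2 signal was 10.31 and 9.84 on the A0 1 h arrays, against 7.48 and 6.93 on the controls. The groups did not overlap, and the log2 fold change of 2.87 was 7.31-fold (SE 0.418, limma adjusted p = 0.00813). The next riser stood at 2.82.

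GI_16507203-S fell the most of the probes detected on all 4 arrays. Its log2 signal was 6.60 and 6.76 on the A0 1 h arrays, against 9.05 and 9.38 on the controls. It fell by 2.54 log2 units (SE 0.533, limma adjusted p = 0.0286), and the arrays of a group lay closer to each other than to those of the other group. The change was 5.80-fold, and scanner signals were 172.5 and 203.7 on the A0 1 h arrays, against 719.1 and 807 on the controls.

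GI_40317625-S, the other faller, stood at the 76.7th percentile of the probes at A0 1 h and at the 95.8th in control. Its log2 signal was 8.34 and 9.44 on the A0 1 h arrays, against 10.79 and 11.60 on the controls. The groups did not overlap, but the A0 1 h arrays differed by more than 1 log2 unit. The lower of them was replicate 1, the array with fewer detected probes. It fell by 2.31 log2 units, or 4.95-fold (SE 0.439, limma adjusted p = 0.0185). The next faller stood at -1.84.

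Of these 4 probes only GI_4504436-S held its call with each of the 16 arrays left out in turn, at an adjusted p of up to 0.0154. The call of GI_32698821-S was lost without control 1 (adjusted p = 0.061), control 2 (0.101) and A0 1 h replicate 1 (0.117). The calls of GI_16507203-S and GI_40317625-S were lost without any 1 of the 4 compared arrays, at an adjusted p of up to 0.23 and 0.24, while their changes stayed between -2.70 and -2.37 and between -2.86 and -1.76. The call of GI_16507203-S was also lost with the authors' deposited processed values (0.0663) and without a filter on detection (0.0776), and that of GI_40317625-S without the filter (0.0513).

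The number of calls changed with the arrays and the model. It became 5 when control 1 was left out, 2 for control 2, 7 for A0 1 h replicate 1 and 9 for A0 1 h replicate 2. In these fits the lone array of the group was assumed to vary like the other groups. Without either A0 6 h array the count was 416. Leaving out any 1 of the other A0 or cisplatin arrays gave 216 to 255, and the cause of this difference was not tested. The main model pools the spread between replicates over all 8 groups. Over the 8575 probes, the SD of the difference between a group's 2 arrays was 0.31 at A0 1 h and 0.32 in control. These were the lowest of the 8 groups, and 0.51 at A0 6 h was the highest. Fitted on the 4 compared arrays alone, 489 probes were higher and 453 lower. With array weights, 640 were higher and 647 lower, and all 254 probes were among those called in each of these fits. The authors' deposited processed values, which moved the median difference by 0.104, gave 81 higher and 21 lower, so the share of higher calls was 79.4%, against 63.8% above. At an adjusted p of 0.01, 10 probes were called, all of them higher.

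The next comparison asked where the 1 h profile differed from later times, and its values use no control array, though the controls share in the estimate of spread. Between A0 3 h and A0 1 h limma called 0 of the 8575 probes (0% of all tested), with 307 at an unadjusted p under 0.05. Alternatives of normalisation, filter and variance gave between 0 and 5 calls. For GI_4504436-S the difference of A0 3 h from A0 1 h was 0.83 and for GI_32698821-S 0.78, each with an SE above 0.41 and an adjusted p of 1. A miss of the threshold does not show that the levels were alike. Among the 162 probes called higher at 1 h the median difference of A0 3 h from A0 1 h was -0.19, and among the 92 called lower it was 0.23, a description only, since the same A0 1 h arrays chose them.

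Between A0 12 h and A0 1 h the profile had changed at 1231 of the 8575 probes, or 14.4%, against 14.7% of all tested, with 445 higher and 786 lower at 12 h. The split turned with the scaling. Centring on the 75th percentile, which moved the median difference by 0.141, gave 576 higher and 480 lower, and the deposited processed values 636 and 654, so no majority direction is given. The rule that chose the probes favours those lower at 12 h, since a transcript first detected later could not enter. Leaving out A0 1 h replicate 1 gave 333, A0 1 h replicate 2 gave 373, and A0 12 h replicate 2 gave 403.

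GI_32698821-S rose further, to 12.41 and 13.22 at A0 12 h, against 10.31 and 9.84 at A0 1 h, a difference of 2.74 (SE 0.418, limma adjusted p = 0.0014). That of GI_4504436-S was 1.15 (adjusted p = 0.0864), and its call turned with the setting, from 0.0177 with 75th percentile centring to 0.191 without a filter. Both fallers stood higher at 12 h than at 1 h. They were chosen for their fall at A0 1 h, and the same A0 1 h arrays enter this difference. The choice itself thus favours a rise, and the adjusted p of these rises takes no account of it. GI_16507203-S was at 8.34 and 8.57 at A0 12 h, against 6.60 and 6.76 at A0 1 h, a difference of 1.77 (adjusted p = 0.0395). For GI_40317625-S the values were 10.45 and 10.20 at A0 12 h, against 8.34 and 9.44 at A0 1 h, a difference of 1.44 (adjusted p = 0.0427). The 12 h calls of both fallers were lost without any 1 of A0 1 h replicate 1 and the A0 12 h arrays, at an adjusted p of up to 0.171 and 0.334, and that of GI_16507203-S also without control 1, control 2 or A0 1 h replicate 2. The call of GI_40317625-S was lost without either cisplatin 6 h array too, at 0.0505, and without A0 1 h replicate 1 its difference was 0.88. Without a filter both calls were lost (0.103 for GI_16507203-S and 0.105 for GI_40317625-S), and on the compared arrays alone that of GI_40317625-S was (0.056).

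Set against the mean of the 3 later A0 times, 142 of the 8575 probes were higher at 1 h and 83 lower. That is 2.62%, and all tested probes gave 143 and 111, or 2.73%. Of the 142, the median log2 level was 7.13 in control, 7.45 at 1 h, 7.07 at 3 h, 6.44 at 6 h and 5.90 at 12 h, and in 112 of them the group mean was lower at each step from 1 to 12 h. In 105 the mean at 1 h was the highest of control and the 4 A0 times. The 83 ran the other way, with medians of 7.37 in control, 7.36 at 1 h, 8.06 at 3 h, 8.80 at 6 h and 9.51 at 12 h, a mean that was higher at each step in 70, and the lowest mean at 1 h in 45. These levels describe probes chosen on the same arrays and carry no test of their own. With 75th percentile centring the split was 74 and 74.

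That count of 225 also moved with single arrays. It became 13 without A0 1 h replicate 1 and 12 without replicate 2, 147 without either control, 129 without A0 3 h replicate 1, 447 without A0 6 h replicate 1 and 124 without A0 12 h replicate 2. Of the 4 probes above only GI_32698821-S passed, at -1.77 for A0 1 h minus the later mean (SE 0.342, adjusted p = 0.0177), and this call was lost without A0 1 h replicate 1 (0.143) or replicate 2 (0.227) and on the arrays of A0 alone (0.0506).

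The probes called at 1 h were followed through the other groups as a description. They were chosen for their 1 h difference from control, so the choice itself lifts the size of the 1 h medians. All columns share the control arrays, so the choice also favours later A0 and cisplatin medians in the same direction. Undetected groups were again held at the dimmest detected signal. The 162 higher probes had a median log2 difference from control of 1.35 at A0 1 h, 1.13 at 3 h, 0.99 at 6 h and 0.56 at 12 h, and 136, 100, 79 and 44 of them were 2-fold or more above control at these times. Over all tested probes that share was 2.37%, 1.97%, 2.11% and 3.72%. The 92 lower probes had medians of -1.13, -0.93, -0.85 and -0.59, with 62, 36, 35 and 21 of them 2-fold or more below control, where all tested probes gave 1.9%, 1.67%, 2.11% and 3.56%. With cisplatin at 3, 6 and 12 h the 162 had medians of 0.89, 0.62 and 0.12, with 63, 39 and 9 of them 2-fold or more above control (1.3%, 2.09% and 2.24% of all tested). The 92 had -0.72, -0.48 and -0.22, with 21, 10 and 9 of them 2-fold or more below it (0.979%, 2.25% and 3.9% of all tested). The quartiles over the 162 were 0.24 and 1.05 at A0 12 h and -0.22 and 0.49 at cisplatin 12 h. Cisplatin was not sampled at 1 h, so no comparison of the drugs is made at that time.

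Single probes followed different courses. GI_4504436-S averaged 12.00 ± 0.21, 12.83 ± 0.13, 13.02 ± 0.57 and 13.16 ± 0.38 at A0 1, 3, 6 and 12 h, and 11.37 ± 0.33, 9.74 ± 0.94 and 8.14 ± 0.77 at cisplatin 3, 6 and 12 h, against 7.42 ± 0.14 in control (log2 signal, SD, n = 2 each). The ranges of its arrays at A0 3, 6 and 12 h overlapped. GI_32698821-S averaged 10.07 ± 0.33, 10.86 ± 0.27, 11.86 ± 0.51 and 12.81 ± 0.57 with A0, and 9.53 ± 0.53, 9.12 ± 0.83 and 8.02 ± 0.40 with cisplatin, against 7.20 ± 0.38 in control. Both probes were higher than control at A0 3, 6 and 12 h and at cisplatin 3 and 6 h (limma adjusted p up to 0.036) and were not called at cisplatin 12 h (0.337 for GI_4504436-S, 0.255 for GI_32698821-S). Cisplatin levels of both probes thus stood lower at 12 h than at 3 h while those with A0 stood higher, a contrast that was not tested here. Both probes were chosen for their rise over the same control arrays that enter the later differences from control. The choice favours those calls as well, and their adjusted p takes no account of it.

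GI_16507203-S averaged 6.68 ± 0.12, 7.21 ± 0.74, 7.51 ± 1.302 and 8.45 ± 0.16 at A0 1, 3, 6 and 12 h, and 7.49 ± 0.80, 8.12 ± 0.40 and 8.07 ± 0.63 at cisplatin 3, 6 and 12 h, against 9.22 ± 0.24 in control. Its 2 arrays at A0 6 h read 6.59 and 8.43, so the replicates of that group stood far apart. GI_40317625-S averaged 8.89 ± 0.78, 9.30 ± 0.69, 9.45 ± 0.23 and 10.33 ± 0.18 with A0, and 9.79 ± 0.58, 9.96 ± 0.41 and 9.54 ± 0.52 with cisplatin, against 11.20 ± 0.57 in control. Every treated array lay below both controls for these 2 probes. Both were chosen for a fall from these same controls, which enter each later difference from control. The choice favours lower values and calls at the later times, and the adjusted p takes no account of it. Later than 1 h, GI_40317625-S was called lower than control at A0 6 h (-1.75, adjusted p = 0.043) and at cisplatin 12 h (-1.66, adjusted p = 0.0288), and GI_16507203-S was not called at any later time, with A0 or with cisplatin (adjusted p from 0.0752 to 0.387).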

How the data were processed

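Total RNA of 16 HT1080 samples was amplified, labelled with biotin and read on single-colour Illumina bead arrays, per the labels. The deposited array files hold a mean bead intensity per probe and a detection score, per the file headers. The intensities stay far above 0 and differ in distribution between arrays, so they were treated as not yet background corrected or normalised. The submitters' processing notes name BeadStudio 1.5.1.3. A second deposited table of processed intensity values served as an alternative. Its columns follow the scanner signals along a straight line, with medians of 18.8 and 12.15 for A0 1 h and 12.8 and 12.2 for control. Values under 16 were set to 16 before the log2 step. The medians of both controls and of A0 1 h replicate 2 lay under that floor, so results with this table rest on its brighter probes. Its centring and normalisation are unknown, being not given in the sources used here.

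Signals were corrected, quantile normalised and put on a log2 scale (limma 3.58.1 in R 4.3.3, neqc with an offset of 16 and the background estimated through the detection scores). One linear model of 8 group means over all 16 arrays gave 4 contrasts, with 8 residual and 5.7 prior degrees of freedom. Probes were called at a Benjamini-Hochberg adjusted p of 0.05 over 9293 tested probes. Between 7626 and 9640 probes were detected per array, with a median of 41 to 42 beads per probe. The number of arrays limits the precision.

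The named probes are the 2 risers and 2 fallers with the largest change among called probes that all 4 arrays detected and whose groups did not overlap. The 20 gene lists, with 529 entries, were not used because no probe could be named. Members, lists and tests were chosen with earlier results of these data known. Alternatives covered the offset, scaling, filter, threshold, variance model, array weights, arrays in the model, a block for the replicate number and each array left out.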

Additional observations from a re-analysis of the deposited data

Results flagged for a closer look

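Levels with A0 at 1 h and at later times were set against each other by a direct test of the difference. A0 12 h differed from A0 1 h at 1231 of the 8575 probes, or 14.4% against 14.7% of all tested, and A0 1 h from the mean of A0 3, 6 and 12 h at 225, or 2.62% against 2.73%. Of the 4 probes described singly, GI_32698821-S was 2.74 higher at A0 12 h than at A0 1 h on the log2 scale (limma adjusted p = 0.0014) and stood at -1.77 for A0 1 h minus the later mean (0.0177), a call lost without either A0 1 h array. GI_16507203-S was 1.77 higher (0.0395) and GI_40317625-S 1.44 higher (0.0427) at A0 12 h than at A0 1 h, each after a lower level at A0 1 h than in control. These rises are favoured by the choice of both probes for a low level on the same A0 1 h arrays. Both of these last calls were lost without a filter (0.103 and 0.105) and on leaving out single arrays, 6 of the 16 for GI_16507203-S and 5 for GI_40317625-S.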

How the results depend on the processing

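The 254 calls at A0 1 h became 410 with an offset of 50, 102 with the deposited processed values, 99 without a filter, 416 with a trended and robust variance, 1287 with array weights, 942 on the compared arrays alone and 10 at an adjusted p of 0.01. With the replicate block they became 555. Leaving out an array gave 2 to 416. Of the 254 probes, 75 kept their call under 9 changes together, 62 of them higher. These were 3 other normalisations, 4 variance or array models and 2 other filters. The filter for detection on both arrays of both compared groups was not among the 9, and under it 213 of the 254 kept their call. The 0 calls between A0 3 h and A0 1 h became 2 with an offset of 50, 2 with a trended and robust variance, 1 with the deposited values, 5 with array weights and 1 with the replicate block, and stayed at 0 with each array left out. The 1231 calls between A0 12 h and A0 1 h became 723 with a 2-fold minimum and 401 at an adjusted p of 0.01, 1604 with the replicate block, and 333 to 1398 with an array left out. The 225 calls for A0 1 h against the later mean became 148 with 75th percentile centring, 120 without a filter, 774 with array weights, 36 on the compared arrays alone, 111 with a 2-fold minimum, 39 at an adjusted p of 0.01, 349 with the replicate block and 12 to 447 with an array left out. The causes of these changes were not tested, beyond fewer arrays or a stricter threshold. No called value of the 4 named probes changed sign.

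The labels do not say that a replicate number marks a shared culture or day. The differences between replicates 1 and 2 correlated at 0.22 between A0 1 h and control. Over the 28 pairs of groups the values ran from -0.26 to 0.38, 18 of them above 0.1. Replicate 1 also detected fewer probes than replicate 2 in every group, from 8719 against 8835 at cisplatin 6 h to 7626 against 9640 at A0 3 h. Its bright signals were the lower in every treated group, though not in control. These values differ by replicate number, but whether the number carries a shared effect was not tested. The main model did not pair the samples by these numbers, and with the replicate block the calls at A0 1 h were 555 in place of 254. With 2 arrays a group and an offset added to all signals, small changes of dim transcripts may have been missed, which was not tested.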
